A study of Mus musculus with 6 samples.

Results

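The genes described here are 10 interferon-inducible GTPase genes of the mouse, the guanylate-binding protein genes Gbp2, Gbp3, Gbp4, Gbp6, Gbp7, Gbp8 and Gbp9 and the immunity-related GTPase genes Irgm1, Irgm2 and Igtp. They were taken by symbol from a table of 49523 genes, and all 10 were present. The genes were chosen by values of the comparison of CSC with non-CSC described here, so their levels and fold changes in it are given as a description, with no test. The libraries came from EO771, a mouse mammary carcinoma cell line, and were 3 of cancer stem cells (CSC) and 3 of cells labelled non-CSC, all from total RNA. The labels name no treatment or genotype for either group, nor by what means CSC were separated, nor whether a group's libraries stem from separate cultures. The spread behind the p-values given for other genes is that between these libraries, and it may be technical.

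Guanylate-binding proteins (GBPs) are large GTPases that cells make in response to interferons, above all interferon-gamma. They gather on the vacuoles of intracellular parasites and on bacteria in the cytosol, and help to open these compartments and to start inflammasome signalling. Immunity-related GTPases (IRGs) are smaller proteins that load onto the same vacuoles in mice. Irgm1, Irgm2 and Igtp (also called Irgm3) form a regulatory branch that sits on the cell's own membranes and keeps the other IRGs inactive there. Interferon-gamma signals through its receptor and the kinases Jak1 and Jak2 to GAS elements in promoters. Type I interferons act through complexes with Stat2 and Irf9, which bind interferon-stimulated response elements (ISREs), and Irf1 binds similar sequences.

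The Irgm proteins carry methionine in the first nucleotide-binding motif (G1), at a place where GBPs and the effector IRGs carry lysine. The windows below are coding sequence of this motif from GENCODE M21 for 5 of the genes, shown because they hold that defining residue, with its codon in capitals.
Gbp2: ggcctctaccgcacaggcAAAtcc
Gbp3: ggtttatatcgtacagggAAGtcc
Gbp4: ggatggtcccatacagggAAGtcc
Gbp9: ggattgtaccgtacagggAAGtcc
Irgm2: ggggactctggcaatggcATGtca
In the 7 Gbp genes the capital codon was AAA or AAG, which encode lysine, and in Irgm1, Irgm2 and Igtp it was ATG, which encodes methionine. Gbp6 and Gbp8 had the same 24 bases as Gbp9, and Irgm1 and Igtp the same as Irgm2. A Gbp window and an Irgm window differed at 11 to 14 of the 24 bases, and 2 different Gbp windows at 3 to 9.

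Promoter windows of 300 bases, from 250 bases before to 50 after a start site, were taken from a ready set of windows (GRCm38.p6). It held 7 windows for 6 of the 10 genes (Gbp2, Gbp3, Gbp7, Irgm1, Irgm2 and Igtp). The set held none for Gbp4, Gbp6, Gbp8 and Gbp9, although RefSeq gives positions for these genes, so their promoters were not searched. The windows were searched on both strands for an ISRE core, which is TTTC, any 2 bases and TTTC again, and for a GAS element, TTCNNNGAA. Windows of 5 genes are shown because they set genes that differed between CSC and non-CSC beside genes that hardly did, with every exact match in capitals. They are chr3:142620413-142620712 (Gbp2), chr3:142559794-142560093 (Gbp3), chr3:142530086-142530385 (Gbp7), chr11:58199306-58199605 (Igtp) and chr11:58214727-58215026 (Irgm2), each read on the plus strand.
Gbp2 promoter: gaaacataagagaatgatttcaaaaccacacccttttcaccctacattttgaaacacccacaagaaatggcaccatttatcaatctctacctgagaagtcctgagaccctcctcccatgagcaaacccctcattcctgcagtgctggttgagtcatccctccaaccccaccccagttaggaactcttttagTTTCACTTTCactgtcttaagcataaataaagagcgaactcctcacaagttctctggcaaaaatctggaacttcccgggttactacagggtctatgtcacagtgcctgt
Gbp3 promoter: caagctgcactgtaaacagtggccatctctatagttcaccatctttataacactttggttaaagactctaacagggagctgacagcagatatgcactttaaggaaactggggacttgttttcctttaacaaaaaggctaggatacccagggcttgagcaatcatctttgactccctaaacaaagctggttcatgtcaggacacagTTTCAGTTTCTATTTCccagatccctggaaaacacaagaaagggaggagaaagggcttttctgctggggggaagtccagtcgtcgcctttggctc
Gbp7 promoter: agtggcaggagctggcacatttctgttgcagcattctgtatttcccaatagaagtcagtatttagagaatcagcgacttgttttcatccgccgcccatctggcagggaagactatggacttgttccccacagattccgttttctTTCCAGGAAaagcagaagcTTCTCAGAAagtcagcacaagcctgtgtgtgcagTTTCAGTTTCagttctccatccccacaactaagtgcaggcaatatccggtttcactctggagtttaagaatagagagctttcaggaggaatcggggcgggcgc
Igtp promoter: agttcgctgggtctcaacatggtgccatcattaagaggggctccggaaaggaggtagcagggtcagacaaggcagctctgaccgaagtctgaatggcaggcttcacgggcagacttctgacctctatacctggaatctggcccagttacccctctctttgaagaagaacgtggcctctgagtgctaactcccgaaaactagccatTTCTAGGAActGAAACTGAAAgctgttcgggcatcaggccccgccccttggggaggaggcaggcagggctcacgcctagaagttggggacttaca
Irgm2 promoter: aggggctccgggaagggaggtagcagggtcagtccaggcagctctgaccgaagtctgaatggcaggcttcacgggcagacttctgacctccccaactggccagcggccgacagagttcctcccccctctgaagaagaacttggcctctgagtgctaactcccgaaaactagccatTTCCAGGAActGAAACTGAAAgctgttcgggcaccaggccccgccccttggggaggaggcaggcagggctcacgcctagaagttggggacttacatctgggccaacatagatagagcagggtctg
All 6 genes had an exact ISRE core, against 3.44% of all 32851 promoter windows in the table. Its first base lay 59 bases before the start site in Gbp2, 53 in Gbp7, 34 in Igtp and 64 in Irgm2. In Gbp3 a pair of overlapping matches began at 45 and 39 bases before the start, and in Irgm1 (minus strand of chromosome 11) at 30 and 24. The second Gbp3 window had no exact match. An exact GAS match was present in Gbp7, Igtp and Irgm2, which is 3 of 6 genes, against 8.3% of all windows. With 1 mismatch allowed, 35.4% of all windows held the ISRE core and 71.4% the GAS sequence. The Igtp and Irgm2 windows shared 4 runs of at least 20 identical bases, the longest of 61 bases. A match is a run of letters and was not tied to binding by any measurement here. Gbp2, which was 3.01-fold higher in CSC, and Gbp7, Igtp and Irgm2, which lay within 1.15-fold in either direction, all held the ISRE core.

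Library totals were 27099879 to 28205651 counts in CSC and 32204112 to 35971131 in non-CSC. Of 17630 genes that passed a filter on low counts, 66.5% differed at an adjusted p under 0.05 (edgeR's quasi-likelihood test with Benjamini-Hochberg adjustment), 33.4% higher and 33.1% lower in CSC. Of the 10 GTPase genes, 7 were past this threshold on the higher side, 1 on the lower side and 2 on neither. In 8 of the 10 the CSC and non-CSC libraries did not overlap, which was also so for 69.3% of all genes tested. At least 2-fold higher were 5 of the 10, against 8.01% of all genes. These counts describe genes whose values had a part in their choice, and nothing is read from them. All 10 genes passed the filter, but the non-CSC libraries of Gbp4 and Gbp8 would not have reached it alone, so both passed through the group in which they are high. The median log2 fold change of the 10 was 0.97, against 0.01 over all genes tested.

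The highest fold changes belonged to the Gbp genes of chromosome 5. Gbp8, whose protein has been little studied, measured 3.63, 3.85 and 3.96 CPM (counts per 1000000 counts of the library, on library sizes scaled by the TMM method) in CSC, against 0.159, 0.115 and 0.255 CPM in non-CSC. Every CSC library was far above every non-CSC library. The log2 fold change was 4.40 (SE 0.21), or 21.1-fold, and the non-CSC values rested on 5, 4 and 9 counts. Gbp4, which in mouse cells has been described as a brake on Irf7, measured 2.87, 2.62 and 2.41 CPM in CSC, against 0.191, 0.144 and 0.0566 CPM in non-CSC. Its groups were as widely separated, and the non-CSC counts were 6, 5 and 2. The log2 fold change of Gbp4 was 4.32 (SE 0.26).

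Gbp9, whose protein gathers on Toxoplasma vacuoles in mouse cells, had the highest CPM of this cluster in CSC. It measured 8.42, 10.2 and 10.5 CPM in CSC, against 0.542, 0.461 and 0.538 CPM in non-CSC. CSC replicate 1 was the lowest of the CSC libraries and still far above each non-CSC library. The log2 fold change was 4.24 (SE 0.15), or 18.9-fold. Gbp6 is required for full resistance of mouse macrophages to bacteria. It measured 4.54, 5.48 and 5.38 CPM in CSC, against 0.924, 0.634 and 0.764 CPM in non-CSC, with a log2 fold change of 2.73 (SE 0.15). Most of its transcript sequence also occurs in Gbp10 and another gene, so its counts are uncertain. Its groups did not overlap, and its 6.65-fold difference was the smallest of the 4 genes. Summed over the 4 genes, CSC had 21.3 ± 1.61 CPM and non-CSC 1.59 ± 0.231 CPM (SD, n = 3 each).

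**Figure D1:**
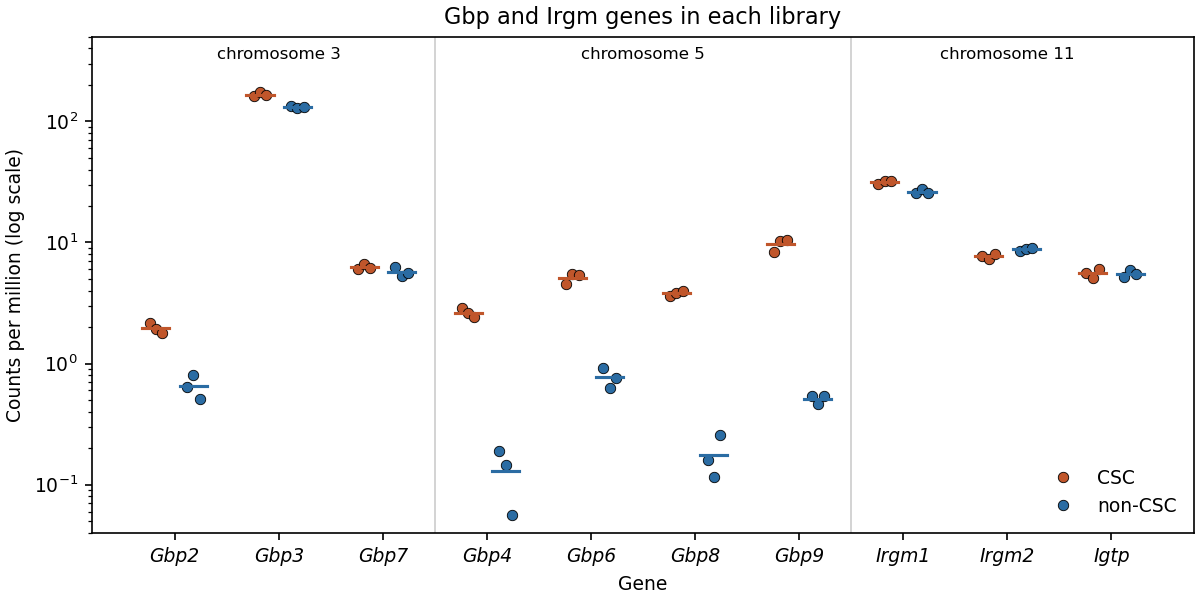
CPM (log axis) of the 10 genes in each of the 6 libraries, with CSC left of non-CSC for each gene; points are libraries and bars are group means. The chromosome 5 genes Gbp4, Gbp6, Gbp8 and Gbp9 lie between 2.41 and 10.5 CPM in CSC and between 0.0566 and 0.924 CPM in non-CSC, while Gbp7 and Igtp overlap.

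The Gbp genes of chromosome 3 differed among themselves. Gbp2 encodes a lipid-anchored protein that restricts Toxoplasma in mice. It measured 2.18, 1.94 and 1.79 CPM in CSC, against 0.637, 0.807 and 0.509 CPM in non-CSC. Every CSC library lay clearly above every non-CSC library, and the log2 fold change was 1.59 (SE 0.20). Gbp3, whose protein is also recruited to parasite vacuoles, was the most abundant of the 10 genes in both groups, also per length. Its level was 161, 173 and 165 CPM in CSC, against 133, 128 and 130 CPM in non-CSC. The groups did not overlap, but the difference was a log2 fold change of 0.35 (SE 0.04), or 27.4% higher in CSC. Gbp7 helps to assemble the phagocyte oxidase on bacterial vacuoles in mice. It measured 6.03, 6.61 and 6.10 CPM in CSC, against 6.31, 5.28 and 5.6 CPM in non-CSC. Non-CSC replicate 1 exceeded 2 of the CSC libraries, so the groups overlapped, with a log2 fold change of 0.13 (SE 0.09).

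The regulatory IRG genes of chromosome 11 were close in level between the groups. Irgm1, which mice need for resistance to mycobacteria and which has been tied to autophagy, measured 30.7, 32.1 and 31.9 CPM in CSC, against 25.5, 27.4 and 25.7 CPM in non-CSC. All CSC libraries were above all non-CSC libraries, by a log2 fold change of 0.27 (SE 0.05). Irgm2, a Golgi protein that in mice restrains the caspase-11 inflammasome, was the only one of the 10 with a lower mean in CSC. Its level was 7.69, 7.32 and 8.0 CPM in CSC, against 8.57, 8.85 and 9.08 CPM in non-CSC. The groups did not overlap, and the log2 fold change was -0.20 (SE 0.08). Across 15 other settings it stayed between -0.24 and -0.14. It was not past the threshold under upper-quartile or library-size scaling, at a mean of at least 50 counts, with DESeq2, or without CSC replicate 2 or non-CSC replicate 3. Igtp, a protein of the endoplasmic reticulum and lipid droplets, measured 5.63, 5.09 and 6.07 CPM in CSC, against 5.23, 5.94 and 5.46 CPM in non-CSC. These ranges overlapped almost fully, with a log2 fold change of 0.01 (SE 0.10).

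Levels of different genes can be set side by side only per length, here as CPM per kilobase of the exons of all annotated transcripts. In CSC the order was Gbp3 (50.9 CPM per kilobase), Irgm1 (5.43), Igtp (2.77), Irgm2 (2.08), Gbp9 (1.88), Gbp7 (1.11), Gbp8 (1.11), Gbp6 (0.862), Gbp2 (0.784) and Gbp4 (0.351). The libraries of Irgm2 and Gbp9, of Gbp7 and Gbp8, and of Gbp6 and Gbp2 overlapped, so these neighbours are not ordered. In non-CSC the order was Gbp3 (40.0 CPM per kilobase), Irgm1 (4.51), Igtp (2.74), Irgm2 (2.39), Gbp7 (1.02), Gbp2 (0.259), Gbp6 (0.13), Gbp9 (0.0993), Gbp8 (0.0512) and Gbp4 (0.0174), and no neighbours overlapped. Gbp9 stood above Gbp7, Gbp2 and Gbp6 in CSC and below all of these in non-CSC. With the longest coding transcript as the length, an alternative added after the data were seen, Gbp9 came before Irgm2 in CSC with overlapping libraries, Gbp6 and Gbp8 came before Gbp7, and the level of Irgm1 was 14.0 in CSC and 11.6 CPM per kilobase in non-CSC. By that length Gbp6 came before Gbp2 in non-CSC and their libraries overlapped, so these are not ordered. Gbp3 alone made up 69.1% of the summed CPM of the 10 genes in CSC and 72.9% in non-CSC. That sum was 241 ± 8.13 CPM in CSC and 179 ± 1.47 CPM in non-CSC (SD, n = 3 each).

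Paralogs of these families share sequence, and no source used here says how the authors' counting treated reads that match several genes. Each gene's longest coding transcript was therefore cut into all its 50-base words, and the words also present in transcripts of other genes were counted (GENCODE M21). They made up 90.2% of the words of Gbp6, whose words are found in Gm43302 (90.2%) and Gbp10 (62.3%), so the counts of Gbp6 and Gbp10 are uncertain and the 2 genes are not independent readings. Gm43302 was not analysed here. The share was 21.2% for Gbp8, 12.8% for Gbp4 and 9.56% for Gbp9, spread over other Gbp genes of chromosome 5. Gbp2 had 2.07%, Gbp3 4.79% and Gbp7 12.9%, of which most lay in Gm43802. Irgm1 had 0.81%, Irgm2 7.30% and Igtp 12.3%, the last all with Irgm2. With 100-base words the share of Gbp6 was 82.9%, and those of Gbp8, Gbp4 and Gbp9 were 3.81%, 2.88% and 2.01%. The long noncoding RNA Gm40158 lies wholly within the span of Gbp3, and without a stated strand setting the reads of the pair cannot be told apart. Its log2 fold change was 0.26.

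**Figure D2:**
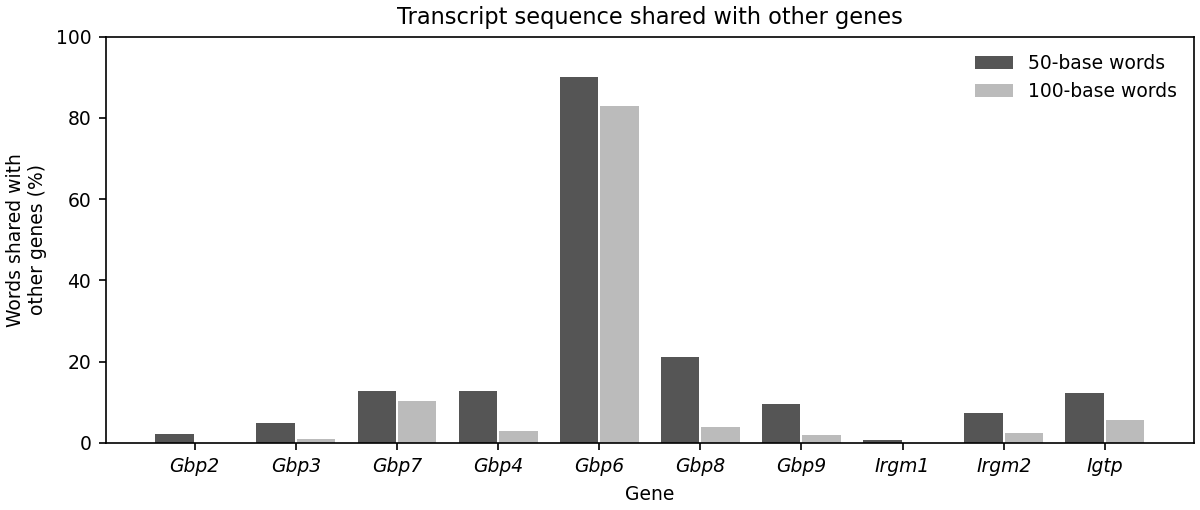
Percentage of 50-base and 100-base words of each gene's longest coding transcript that also occur in transcripts of other genes. Gbp6 stands apart with 90.2% and 82.9%, while Gbp8 follows with 21.2% at 50 bases.

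Of 14 other listed genes of the GBP, IRG and GVIN families, 8 passed the filter, of which 7 rose and 1 fell in CSC. Of these 8, Gbp10 and Gm12250 reached the filter level (0.331 CPM in all libraries of a group) only in CSC and Iigp1 only in non-CSC, so these 3 passed only through the group in which they are high and nothing is read from their calls. The other 5 all rose, where 33.4% of all genes tested were higher in CSC. These 5 include Tgtp1 and Tgtp2, which share most of their words with each other and count as 1 reading. The list leaves out Gm12185, which shares words with Tgtp1 and Tgtp2 and fell, so the counts do not cover whole families. Gbp10, a neighbour of Gbp6 in the chromosome 5 cluster, had 32, 34 and 21 counts in CSC, against 6, 2 and 1 counts in non-CSC. The groups were apart, and the log2 fold change was 3.47 (SE 0.41). Gbp2b, Gbp5 and Gbp11 had at most 6 counts in a library and were not tested, nor were the IRG genes Gm4951, with at most 2 counts, and F830016B08Rik, with 0 counts in all libraries. Gvin1, a very large interferon-inducible GTPase of chromosome 7, rose to 20.1, 20.1 and 19.7 CPM in CSC, against 3.67, 3.23 and 3.42 CPM in non-CSC (log2 fold change 2.54, edgeR adjusted p = 2.95e-18), and shares 99.2% of its words with other genes, mostly the copy Gm4070.

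The listed effector IRGs near Irgm1, Igtp and Irgm2 on chromosome 11 had larger fold changes than these 3 genes. Gm12185 lies near Irgm1 and holds 6.34% of the 50-base words of Tgtp1. It was not on the list and fell by 0.70 on the log2 scale. Ifi47 rose to 17.8 ± 0.616 CPM in CSC, against 8.08 ± 0.409 CPM in non-CSC (SD, n = 3 each), with a log2 difference of 1.14 (edgeR adjusted p = 9.09e-13). Tgtp1 rose by 1.11 and Tgtp2 by 0.97 on the log2 scale, but they share 91.4% and 90.6% of their words, mainly with each other, and count as 1 reading. Gm12250, the neighbour of Igtp, had 11, 21 and 23 counts in CSC, against 5, 12 and 4 counts in non-CSC, with a log2 fold change of 1.63. Irgq, an IRG-like gene of chromosome 7, rose by 0.27. Iigp1, an effector that binds parasite vacuoles, had 3, 1 and 4 counts in CSC, against 12, 13 and 12 counts in non-CSC, with a log2 fold change of -1.91. Without non-CSC replicate 2 no gene of this list was called lower. Irgc1 had at most 18 counts in a library and was not tested. Whether the fold changes of 2 genes differ from each other was not tested.

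**Figure D3:**
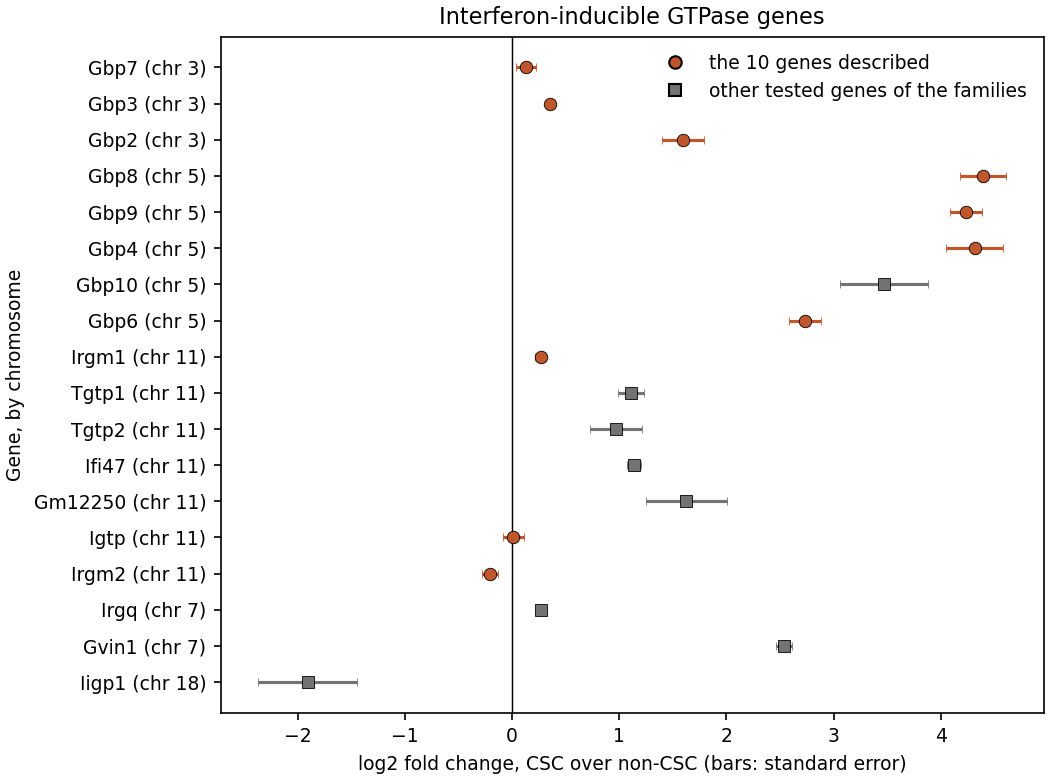
Log2 fold change of CSC over non-CSC with its standard error for the 10 genes (circles) and the 8 other tested genes listed for the families (squares), by chromosome. The chromosome 5 Gbp genes lie between 2.73 and 4.40, the Irgm genes and Igtp between -0.20 and 0.27, and Iigp1 at -1.91.

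The Gbp genes lie in a cluster at 105012513 to 105346476 of chromosome 5 (Gbp8, Gbp9, Gbp4, Gbp10, Gbp6 and Gbp11, all on the minus strand) and in another at 142496934 to 142638008 of chromosome 3 (Gbp5, Gbp7, Gbp3, Gbp2b and Gbp2, all on the plus strand) in GRCm38.p6. Of 16 other tested genes within 1 Mb of the chromosome 5 cluster, 11 rose and 3 fell in CSC. Their median log2 fold change was 0.38. Their range was -0.57 to 0.95, and none reached 2-fold. The highest was Lrrc8b, a subunit gene of volume-regulated anion channels, chosen after its value was seen. Within 0.5 Mb 5 of 9 rose and the median was 0.17. Around the chromosome 3 cluster 2 of 6 tested genes rose and 4 fell, and the median was -0.39. The 2 that rose were Kyat3 and Gm40158. Gm40158 lies within the span of Gbp3, so it is not a reading independent of that gene. Within 1 Mb of Irgm1 16 of 32 tested genes rose and 7 fell, the median was 0.17, and 3 rose at least 2-fold, which were the family genes Tgtp1 and Ifi47 and the noncoding RNA Gm36109. Without the listed family genes, which the counts around the Gbp clusters leave out, 13 of 29 rose and the median was 0.13. Gm12185, which shares words with Tgtp1, is still among these 29. Around Igtp and Irgm2 (58199556 to 58222783 of chromosome 11) 13 of 36 rose and 8 fell, and the median was 0.05. Without the listed family gene there 12 of 35 rose and the median was 0.002. At least 2-fold higher there were the family gene Gm12250 and 2210407C18Rik, which had 24, 25 and 24 counts in CSC, against 0 counts in each non-CSC library. Gm36109 and 2210407C18Rik were chosen after their values were seen. Beside all these counts of neighbours, 33.4% of all genes tested were higher in CSC and 33.1% lower.

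**Figure D4:**
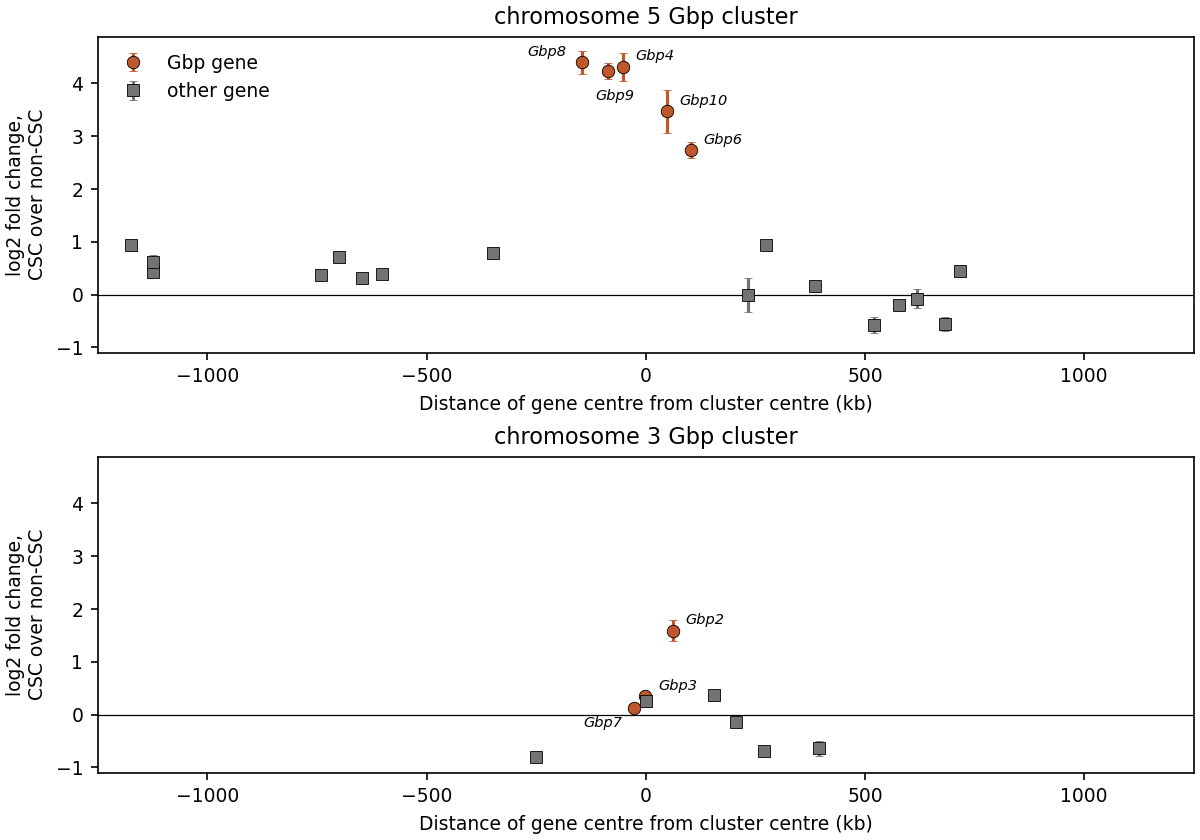
Log2 fold change of CSC over non-CSC, with its standard error, against the distance of a gene's centre from the centre of the Gbp cluster of chromosome 5 (top) and chromosome 3 (bottom). Gbp genes are circles and other tested genes squares; around chromosome 5 the squares lie between -0.57 and 0.95 and the Gbp genes between 2.73 and 4.40.

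The pathway that induces these genes was followed through lists of its parts. The ligand gene Ifng had 0 counts in all 6 libraries. For Ifng this allows up to 0.0834 to 0.111 CPM per library, on library totals not scaled by TMM (3 counts, counting error only). Its receptor chain Ifngr1 measured 181 ± 6.38 CPM in CSC and 170 ± 7.22 CPM in non-CSC (SD, n = 3 each), with overlapping libraries. The log2 fold change of 0.09 had an edgeR adjusted p of 0.0467, and this call was lost under RLE scaling, without the filter, with the robust setting off, with DESeq2, with limma-voom and without any 1 of CSC replicates 2 and 3 and the non-CSC replicates. Ifngr2 measured 52.8 ± 0.479 CPM in CSC and 53.1 ± 0.477 CPM in non-CSC and did not pass the test (adjusted p = 0.898). Among the type I ligand genes on the list, Ifna4 had 0 counts and Ifnb1 1 count in 1 CSC library. Ifnar1 rose by 0.13 and Il10rb by 0.39 on the log2 scale, while Ifnlr1, the interferon-lambda receptor, fell by 0.77. Ifnar2 had a log2 fold change of 0.11 and did not pass (adjusted p = 0.0809).

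Of 10 listed kinases and transcription factors of the pathway 8 fell, 1 rose and 1 did not pass. Over all genes tested 33.1% fell and 33.4% rose, and the median log2 fold change of the 10 was -0.31. Irf1, a factor that interferon-gamma induces and that Gbp genes depend on in mice, was the one that rose, to 90.4, 88.6 and 87.6 CPM in CSC, against 54.3, 52.9 and 52.1 CPM in non-CSC. The groups were well apart (log2 fold change 0.74, SE 0.04, edgeR adjusted p = 1.37e-13). Irf7, the driver of type I interferon production, fell to 6.03 ± 0.499 CPM in CSC, against 37.4 ± 1.17 CPM in non-CSC, a log2 fold change of -2.63. Falls were also seen for Irf8 (log2 fold change -1.58), Irf9 (-1.45), Stat2 (-0.58) and Irf2 (-0.33). The smallest falls among the 8 were those of Jak1 (log2 fold change -0.30), Jak2 (-0.27) and Tyk2 (-0.18). Stat3 measured 147 ± 2.15 CPM in CSC and 145 ± 5.43 CPM in non-CSC (adjusted p = 0.646). Of 9 inhibitors of the pathway 3 rose and 4 fell, beside the same shares over all genes. Usp18, a brake on the type I receptor that type I interferons induce, had the largest change of these inhibitors, a fall of 1.17 on the log2 scale. Cish (0.41), Ptpn6 (0.30) and Pias1 (0.23) rose, and Ptpn2 (-0.36), Ptpn11 (-0.34) and Socs3 (-0.15) fell.

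Other targets of the interferons were listed as an interferon-gamma class and a type I class, although many genes answer to both. Of 30 interferon-gamma class genes 23 were tested, of which 12 rose, 7 fell and 4 did not pass, with a median log2 fold change of 0.33. In non-CSC 1 of the 23 did not reach the filter level. Of the other 22 genes 11 rose and 7 fell, with a median of 0.28. Over all genes tested 33.4% were higher and 33.1% lower in CSC. Cd74, the invariant chain of class II antigen presentation, rose to 9.08 ± 0.434 CPM in CSC, against 1.02 ± 0.126 CPM in non-CSC (SD, n = 3 each, log2 fold change 3.15). Among subunits of the immunoproteasome, Psmb10 rose by 1.33 and Psmb8 by 1.17. Psmb9 had a log2 fold change of 0.34 with overlapping libraries and did not pass (edgeR adjusted p = 0.0633). Cd274, which encodes PD-L1, fell to 5.01 ± 0.210 CPM in CSC, against 29.2 ± 0.618 CPM in non-CSC, a log2 fold change of -2.54. Upp1 (-0.91) and Nos2, the inducible nitric oxide synthase (-0.78), also fell. Cxcl9 had 0 counts in all libraries.

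In the type I class most tested genes fell. Of 32 genes 30 were tested, of which 4 rose, 22 fell and 4 did not pass, and 18 fell at least 2-fold, against 4.09% of all genes tested. Their median log2 fold change was -1.18. In CSC 6 of the 30 did not reach the filter level, among them Ifi44, Rtp4 and Ddx60, and of the other 24 genes 4 rose and 16 fell, of which 12 were at least 2-fold lower. The median of these 24 was -1.02. Oas2, an enzyme that activates antiviral RNA decay, fell to 0.414 ± 0.0846 CPM in CSC, against 9.50 ± 0.661 CPM in non-CSC (SD, n = 3 each, log2 fold change -4.51, edgeR adjusted p = 1.98e-17). Also far lower were its relative Oas3 (log2 fold change -3.87), Ifi44 (-4.28), Ifi27l2a (-3.60), Rtp4 (-3.12) and Ddx60 (-2.01).

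Partners of the GTPases were also counted. Of 8 genes of the inflammasomes that GBPs engage 6 were tested, of which 5 rose and none fell. Their median log2 fold change was 0.97. Over all genes tested 33.4% were higher and 33.1% lower in CSC. Il18, a cytokine that caspase-1 matures, rose by 2.72, to 11 ± 0.86 CPM in CSC, against 1.66 ± 0.216 CPM in non-CSC (SD, n = 3 each). Gsdmd, the pore-forming protein of pyroptosis, rose by 1.64, Casp1 by 1.42, Casp4 (caspase-11) by 0.52 and the DNA sensor Aim2 by 0.33. The adaptor Pycard, at 1.03 ± 0.368 CPM in CSC and 0.809 ± 0.250 CPM in non-CSC, did not pass (adjusted p = 0.303). Of 16 autophagy genes tied to GTPase targeting 6 rose, 6 fell and 4 did not pass, with a median of 0.00, where 33.4% of all tested genes were higher and 33.1% lower. Genes of the conjugation machinery that IRG and GBP loading needs in mice went both ways. Atg16l1 rose by 0.85, Map1lc3b by 0.69 and Gabarap by 0.30 on the log2 scale, while Gabarapl1 (-0.43), Atg3 (-0.34), Map1lc3a (-0.24) and Atg12 (-0.22) fell. The cargo receptor gene Sqstm1 fell by 0.98, and the ubiquitin ligase gene Trim21 rose by 0.44.

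**Figure D5:**
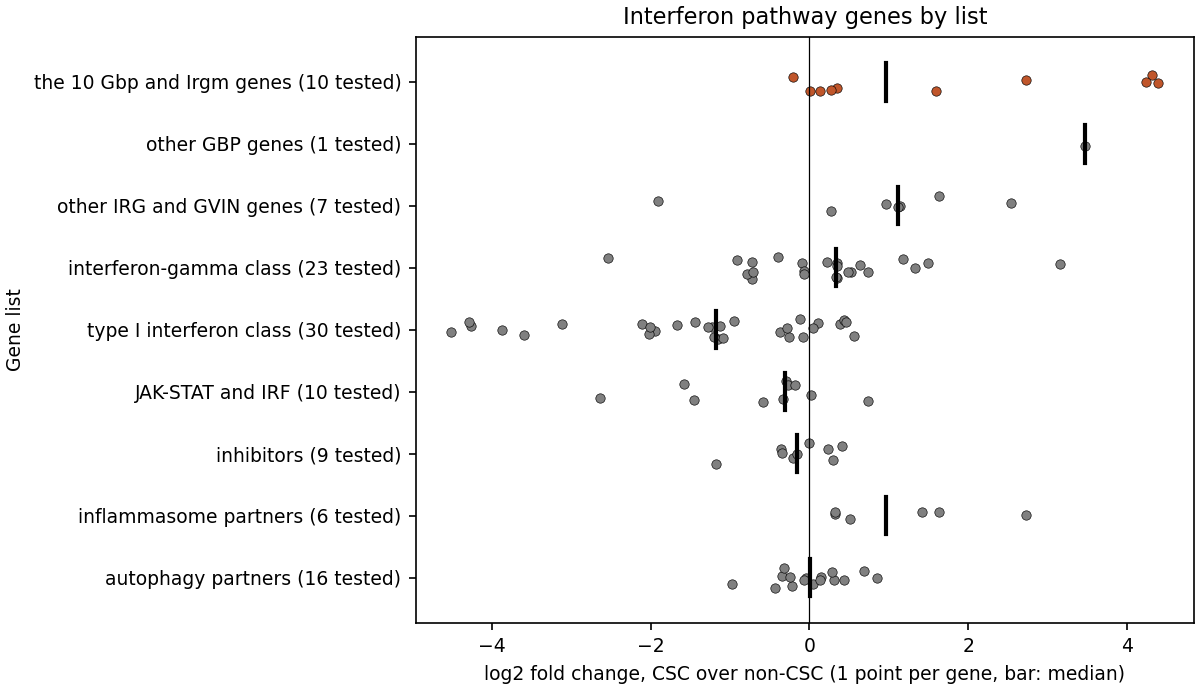
Log2 fold change of CSC over non-CSC for each tested gene (points) of the 10 Gbp and Irgm genes and of 8 lists of related genes, with the median of each list as a bar. The medians are 0.97 for the 10 genes, 0.33 for the interferon-gamma class, -1.18 for the type I class and 0.97 for the inflammasome partners.

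Interferon-inducible GTPases are abundant in macrophages and other immune cells, so markers of other cells were read beside them. The 10 myeloid markers summed to 65.4 to 67.9 CPM in CSC and 47.8 to 50.9 CPM in non-CSC, with 4 of 10 tested. Itgam rose to 10.2 ± 0.432 CPM in CSC, against 0.741 ± 0.118 CPM in non-CSC (SD, n = 3 each), Csf1r rose by 2.12 and Cd14 by 0.56 on the log2 scale, and Cd68 fell by 0.51. Ptprc, the pan-leukocyte marker, had 2, 6 and 5 counts in CSC, against 1, 2 and 6 counts in non-CSC, and the macrophage marker Adgre1 had 0 counts in all libraries. None of the 10 T, B and NK cell markers passed the filter, their sums were 0.0345 to 0.145 CPM in CSC and at most 0.0288 CPM in non-CSC, and 5 were at 0, among them Cd3e and Ms4a1. The 5 endothelial markers summed to 0.389 to 0.517 CPM in CSC and 0.481 to 0.797 CPM in non-CSC, with Tek and Emcn at 0. The 6 fibroblast markers summed to 1196 to 1243 CPM in CSC and 555 to 589 CPM in non-CSC, nearly all from Dcn, with Lum at 0, and Pdgfra rose by 0.36 on the log2 scale. The part of any of these in the GTPase values was not tested. In bulk RNA more cells of a type and more RNA per cell cannot be told apart.

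The label of the line and of the groups was checked in the same way. Carcinoma markers were high in all libraries, with a sum of 3960 to 4141 CPM in CSC and 3700 to 3868 CPM in non-CSC, carried by Krt7, Krt8, Krt18 and Vim, while Cdh1 stayed under 1 CPM in both group means. Single markers moved apart within this sum. Krt7 rose by 1.08 and Krt8 by 0.27 on the log2 scale, Vim fell by 0.55, and the epithelial marker Epcam fell to 10.3 ± 0.192 CPM in CSC, against 21.3 ± 0.646 CPM in non-CSC (SD, n = 3 each). Of 10 markers used for cancer stem cells 8 were tested, of which 4 rose and 4 fell in CSC. Over all genes tested 33.4% were higher and 33.1% lower. Lgr5 rose by 1.29, Aldh1a1 by 0.69, Cd24a by 0.50 and Cd44 by 0.17, while Sox9 (-1.20), Itga6 (-0.78), Procr (-0.23) and Itgb1 (-0.19) fell on the log2 scale. The markers thus did not all move one way, and the groups are called by their labels.

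Genes with the profile most like Gbp8 over the 6 libraries, by Euclidean distance of centred log2 CPM among 11823 candidates, were Gabrp (distance 0.405), Tgfbi (0.414), Pknox2 (0.498), Akr1c14 (0.503) and Notum (0.512). Gbp8 and Irgm2 were taken because they had the highest and the lowest log2 fold change of the 10 genes. About 2 counts were added before the log, which narrows the contrast of a gene with few counts, as Gbp8 has in non-CSC. Candidates were tested genes with a mean of at least 1 CPM. The 10 genes described and symbols of the kinds Gm, Rik and LOC were left out, so likeness among the 10 was not ranked. Gabrp, a GABA receptor subunit gene, measured 51.2 CPM in CSC and 3.64 CPM in non-CSC on average. The genes nearest to Irgm2 were Elovl1 (0.0247), Ugcg (0.0320), Socs6 (0.0325), Dpysl2 (0.0470) and Ubn2 (0.0485). With 6 libraries in 2 groups, the measure is led by the size of the group difference.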

How the data were processed

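RNA of 6 EO771 libraries was sequenced. The authors deposited raw read counts per gene symbol as whole numbers. The build was GRCm38, per the submitters' processing notes. The sources used here do not name the aligner, counter, annotation, strand setting or filter. Columns were matched to samples by group and replicate number. The members and lists were chosen with earlier results of these data known.

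Genes were filtered with filterByExpr, scaled by TMM (0.974 to 1.03) and tested with edgeR 4.0.16 (quasi-likelihood, robust, no covariate), with Benjamini-Hochberg adjustment over 17630 genes and a threshold of 0.05. The method was tested on simulated data in which 17143 of 17343 genes were unchanged. It called 89.4% of genes changed by 0.5 on the log2 scale and 100% of those changed by 1 or 2. In the real data 66.5% of genes differed, so the simulation does not show how the method does at such a share. SE is the log2 fold change divided by the square root of F. All 10 members were named, every gene of the family lists, and of other lists up to 6 genes with the largest change past the threshold and a mean of at least 1 CPM, plus every ligand, receptor, kinase, STAT and IRF. A gene that the rule takes is not reported here. Genes named outside this rule, among the interferon-gamma class, partners, markers and neighbours, were chosen after their values were seen. Positions came from RefSeq GRCm38.p6, which held all 49523 symbols, and transcripts from GENCODE M21. Alternatives were other scalings and filters, DESeq2 1.42.0, limma-voom (limma 3.58.1), the robust setting off, a replicate block and leaving out each library. Between replicates the chi-square per degree of freedom was 3.21 to 7.30, so none was counted as a duplicate. The reads carry no molecular identifiers, so limits of counts cover counting error only.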

Additional observations from a re-analysis of the deposited data

How the results depend on the processing

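Of the recomputed counts of calls 336 stayed within 1.5 times their value and 24 did not, and no fold change past the threshold changed sign. For members called lower the count of 1, which is Irgm2, became 0 under upper-quartile scaling, under library-size scaling, with a mean of at least 50 counts and with DESeq2, and was 0 to 1 without single libraries (0 without CSC replicate 2 or non-CSC replicate 3). For other guanylate-binding protein genes the count called higher became 0 with a mean of at least 50 counts, which Gbp10 does not reach. For other IRG and GVIN genes the count called lower became 2 with no filter beyond 1 count and 0 with a mean of at least 50 counts, and was 0 to 2 without single libraries (2 without any 1 of the CSC libraries and 0 without non-CSC replicate 2). For the interferon-gamma ligand and receptor list the count called higher became 0 under RLE scaling, with no filter beyond 1 count, with the robust setting off, with DESeq2 and with limma-voom, and was 0 to 1 without single libraries, with 1 only when CSC replicate 1 was left out. For JAK-STAT genes the count called higher became 2 under library-size scaling. Ciita, counted as higher in the interferon-gamma class, lost its call in 8 of 15 settings. The cause of these changes was not tested.

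At a mean of at least 50 counts Gbp2 and Gbp4 were not tested and 5 members, against 7, were called higher, so these 2 genes have 14 settings and the others 15. Over the settings the log2 fold change was 4.15 to 4.76 for Gbp8, 3.94 to 4.65 for Gbp4, 4.16 to 4.32 for Gbp9, 2.60 to 2.86 for Gbp6, 1.43 to 1.78 for Gbp2, 0.31 to 0.42 for Gbp3, 0.24 to 0.33 for Irgm1, 0.07 to 0.19 for Gbp7 and -0.05 to 0.08 for Igtp. Upper-quartile scaling, library-size scaling and no filter moved the median of all genes by 0.06, 0.07 and 0.08. With a replicate block 5868 genes were called higher and 5812 lower, against 5894 and 5838 without it, and 7 members were called higher and 1 lower. Deviations of same-numbered libraries correlated at -0.011, -0.026 and -0.022, which gave no sign that the numbers pair the samples. The labels do not say whether they do. Few counts in non-CSC limit the fold changes of Gbp4 and Gbp8.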
